A study of Mus musculus with 146 samples.

Results

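Solute carrier genes encode the SLC superfamily, the membrane proteins that move amino acids, sugars, ions, metals, nucleosides, lipids, vitamins and mitochondrial metabolites into and out of cells and organelles. The members described here are the protein-coding genes with a mouse symbol made of Slc and a family number that had values in the deposited table of variance-stabilised expression (VST, a log2-like scale). Slc2a1, Slc7a2, Slc7a11, Slc11a1, Slc11a2 and Slc40a1 were left out by the rule. This gave 177 members of the 10893 genes in that table. The raw count table, which lists 22721 genes, held 370 protein-coding solute carrier genes, of which 183 had VST values and 6 of these were the genes left out.

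RNA was sequenced from bone marrow-derived macrophages of 146 mice of the outbred strain Crl:CFW(SW)-US_P08 (CFW), all 16 weeks old, with 1 library per mouse. The marrow cells were grown for 5 days with 25% L929-conditioned medium, a source of macrophage colony-stimulating factor, and no treatment was given. The only group label is sex, with 86 female and 60 male mice, and all mice carry the same strain, age and culture labels. Libraries were made on 7 plates, with 6 libraries on plate 1 and 22 to 24 on each other plate, and mice carry 28 date labels for sample collection.

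In macrophages, carriers set how much substrate the cell can take up and where metals and metabolites are stored. Large neutral amino acids enter through heterodimers of the glycoprotein Slc3a2 with a light chain of the Slc7 family, lactate leaves through monocarboxylate transporters that need the chaperone basigin, and mitochondria exchange ATP, phosphate and citrate through the SLC25 family. Zinc is moved into the cytosol by the Slc39 family (ZIP) and out of it by the Slc30 family (ZnT). Several amino acid carriers are textbook targets of the integrated stress response, in which the transcription factor ATF4 raises genes of amino acid uptake and synthesis.

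Library totals ranged from 14.5 M to 120.9 M counts with a median of 43.8 M, and the largest absolute correlation of any member with log2 depth was 0.259. The summed CPM (counts normalised by the library total alone) of 6 macrophage markers ranged from 10590 to 22970. Summed markers of neutrophils and granulocyte precursors ranged from 75.5 to 1732 CPM, with Mpo at 157 ± 106 CPM (SD, n = 146), and Ly6g was at 0 in 56 libraries. Dendritic cell markers, 2 of 4 with a mean at or below 1 CPM, summed to 14.1 to 124.4 CPM and stromal markers to 0.0373 to 80.4 CPM, while T and NK cell markers stayed at or below 3.00 CPM. In 6 libraries, 4 labelled female and 2 labelled male, the summed Y-linked counts went against the labelled sex. For 16 members, at least 20% of the 50-base stretches or of the exon length is shared with another annotated gene. Reads of that gene may be counted among theirs or taken from them, and they are called uncertain where named, Slc25a5, Slc24a5, Slc39a1, Slc39a7 and Slc6a9 among them.

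Promoter stretches are shown for 3 members named in the results below, each with a match to a motif searched. The product or the regulation of each belongs to a pathway tested here, and other members of these pathways are not shown. The stretches come from RefSeq with the build GRCm38.p6, are written 5′ to 3′ on the strand of the gene, and carry in capitals the match to the motif searched. Slc1a4 encodes the neutral amino acid transporter ASCT1, and the stretch at chr11:20332710-20332743 on the minus strand holds TGATGNAA, the C/EBP-ATF element, on the reverse strand from 4 bases before the start site, so that its last 4 bases lie within the transcript. Slc16a3 encodes the lactate exporter MCT4, and the stretch at chr11:120949014-120949066 on the plus strand holds the hypoxia core ACGTG 27 and 14 bases before the RefSeq start site, within the span of the longer annotated Slc16a3 transcript. Slc30a1 encodes the zinc exporter ZnT1, and the stretch at chr1:191906712-191906770 on the plus strand holds TGCNCNC, the metal response element, on the reverse strand 43 bases before the start site.
Slc1a4: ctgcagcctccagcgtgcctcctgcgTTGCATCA
Slc16a3: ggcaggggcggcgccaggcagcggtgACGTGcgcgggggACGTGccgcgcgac
Slc30a1: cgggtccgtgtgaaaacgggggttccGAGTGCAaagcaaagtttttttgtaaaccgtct

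Across the family, 135 of 177 members matched a RefSeq promoter entry, with 184 promoters of 250 bases before to 50 after the start, and motifs were searched on both strands. TGATGNAA was in 2.72% of the members' promoters and in 3.97% of all 32851 promoters, TGCNCNC in 56% and 51%, the E-box CACGTG in 14.1% and 7.15%, and ACGTG, which lies inside CACGTG, in 27.2% and 19.6%. These matches describe the letters in the window and were not tested.

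The members spanned about 3 orders of magnitude in level. Levels between genes are compared here as TPM (counts divided by gene length and scaled to the same total in each library), computed from the deposited counts and the union length of the annotated exons. The mean TPM of the members ran from 0.597 for the mitochondrial carrier Slc25a53 to 709 for Slc25a5, with a median of 32.03 beside 29.4 for all VST genes. Of the 177 members, 31 had a mean of at least 100 TPM, 142 of at least 10 and 3 under 1. The summed TPM of all members stayed between 9999 and 12850 in the 146 libraries, with a median of 11599.

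**Figure D1:**
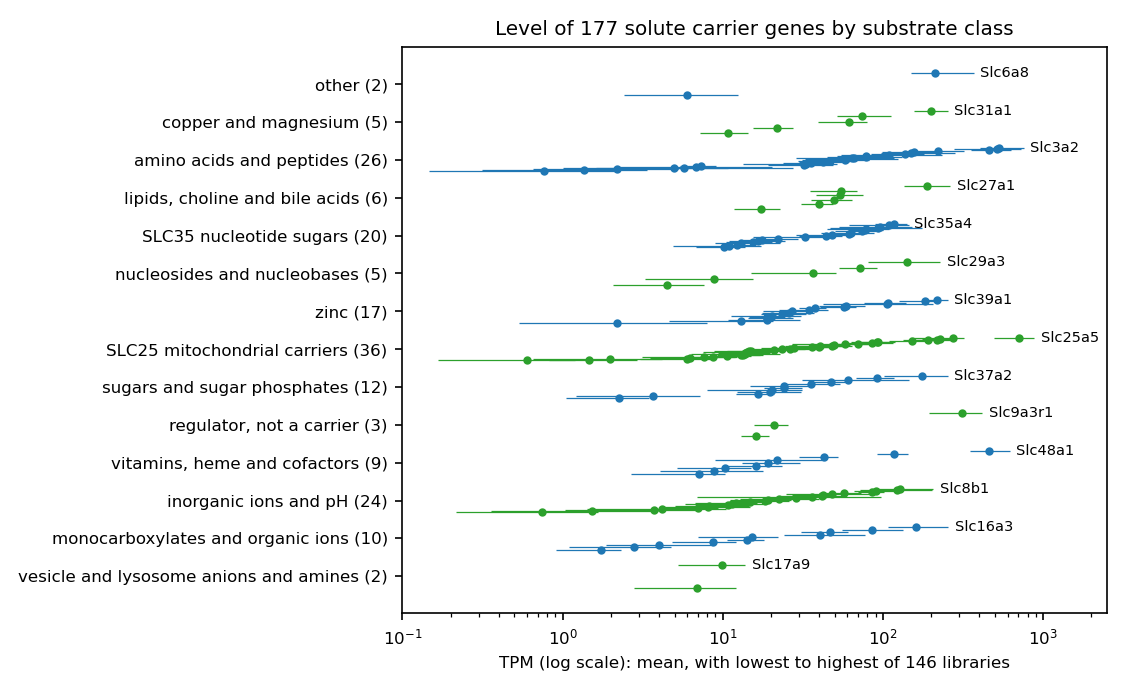
Mean TPM of each member on a log axis, with a line from the lowest to the highest of 146 libraries, grouped by substrate class with the number of members in parentheses and the member of highest mean named. Means run from 0.597 to 709 TPM, and the SLC25 and amino acid classes hold the members with the 3 highest means.

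The leading member by TPM was Slc25a5 (chrX:36795651-36798807, GRCm38, uncertain because 33.8% of its 50-base stretches recur elsewhere), the ADP/ATP translocase of proliferating cells. Its level ranged from 489.3 through a median of 721 to 877.4 TPM, a mean of 709 ± 80.1 (SD, n = 146). Slc25a4, the related translocase of heart and muscle, followed within the SLC25 class at 275 ± 20.7 TPM, and Slc25a3, the mitochondrial phosphate carrier, at 225 ± 17.2. This order holds per length only, with a union exon length of 1646 bases for Slc25a5, 2353 for Slc25a4 and 5550 for Slc25a3. In CPM, plate means ran from 294 to 342 for Slc25a5, 166 to 182 for Slc25a4 and 330 to 351 for Slc25a3. Slc25a24, a calcium-regulated ATP-magnesium carrier, had 216 ± 26.8 TPM and Slc25a11, the oxoglutarate-malate carrier, 190 ± 18.6. The libraries of Slc25a5 lay above all those of Slc25a4, whose highest value was 318.7 TPM, whereas the ranges of Slc25a4 and Slc25a3 overlapped. The 36 members of this class had a median of 24.8 TPM.

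Amino acid carriers held the next places. Slc3a2, the heavy chain CD98, had 531 ± 67.1 TPM (range 400.4 to 754.3) and Slc7a8, its light chain LAT2, 513 ± 96.0 TPM (range 278.8 to 728.0), so the ranges of these partners overlapped. Slc6a6, the taurine transporter, had 461 ± 41.99 TPM and Slc43a2, the uniporter LAT4, 220 ± 37.2. The class of 26 amino acid and peptide carriers had a median of 58.2 TPM, and its lowest member, the neutral amino acid transporter Slc6a19, stood at 0.771 TPM.

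Among metal and cofactor carriers, Slc48a1, which moves heme out of the lysosome, had 459 ± 52.5 TPM, a range that overlapped those of Slc3a2 and Slc6a6. The 3 zinc carriers of highest level were the uncertain Slc39a1 at 217 ± 14.1 TPM, the uncertain Slc39a7 at 183 ± 18.1 and Slc39a6 at 108 ± 14.6, all of the ZIP side. The copper importer Slc31a1 had 200 ± 21.5 TPM, its relative Slc31a2 74.02 ± 11.4 and the magnesium transporter Slc41a2 61.6 ± 6.96. Slc23a2, the ascorbate transporter, had 116 ± 9.76 TPM, and Slc33a1, the acetyl-CoA transporter of the endoplasmic reticulum, which is uncertain, 42.98 ± 4.25.

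For fuels and lipids, the fatty acid transport protein Slc27a1 led with 189 ± 26.7 TPM, above the choline transporter-like genes Slc44a1 at 54.9 ± 6.98 and Slc44a2 at 54.1 ± 8.06. Slc37a2, a sugar phosphate exchanger, had 175 ± 30.7 TPM, the sialic acid exporter Slc17a5 91.6 ± 10.8 and the glucose transporter Slc2a6 60.3 ± 14.2. The lactate exporter Slc16a3 had 160 ± 28.4 TPM against 46.7 ± 5.92 for Slc16a1, the other main monocarboxylate transporter, and the lowest Slc16a3 library (108.2) was above the highest of Slc16a1 (60.4). The uncertain Slc16a6 lay between them at 85.6 ± 15.5 TPM. The creatine transporter Slc6a8 had 212 ± 37.01 TPM.

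The lysosomal nucleoside transporter Slc29a3 had 141 ± 34.1 TPM, the plasma membrane transporter Slc29a1 71.8 ± 7.62 and the purine nucleobase transporter Slc43a3 36.6 ± 8.15. Of the ion carriers, the mitochondrial sodium-calcium exchanger Slc8b1 had 127 ± 22.0 TPM and the phosphate importer Slc20a1 122 ± 24.2. The SLC35 family was led by Slc35a4 at 118 ± 11.8 TPM, Slc35f6 at 108 ± 14.7 and Slc35b1, the ATP/ADP exchanger of the endoplasmic reticulum, at 96.3 ± 24.2. Slc9a3r1, a scaffold that binds transporters and is no carrier itself, had 313 ± 44.8 TPM.

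A further 187 protein-coding solute carrier genes fell below the filter of the VST table, which keeps genes with at least 5 counts in every library. Of these, 24 had no count in any library, which allows up to 0.207 CPM in the shallowest and 0.0248 CPM in the deepest library at 3 counts, for counting error only. Only the peptide transporter Slc15a2, at a median of 2.76 CPM, and the dicarboxylate transporter Slc13a3, at 1.16, had a median of 1 CPM or more.

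Variation between libraries, 1 per mouse, was measured as the standard deviation (SD) of the VST values over the 146 libraries after plate and sex were removed linearly. The median SD was 0.174 for the members and 0.160 for all VST genes, and 11 members (6.22%) were in the most variable 10% of all genes. The spread of CPM, as its 90th percentile divided by its 10th, had a median of 1.45, was at least 2 in 22 members and under 1.3 in 38. The amino acid carriers had a median SD of 0.237 and the nucleoside carriers of 0.296, whereas the mitochondrial carriers had 0.142 and the zinc carriers 0.152.

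**Figure D2:**
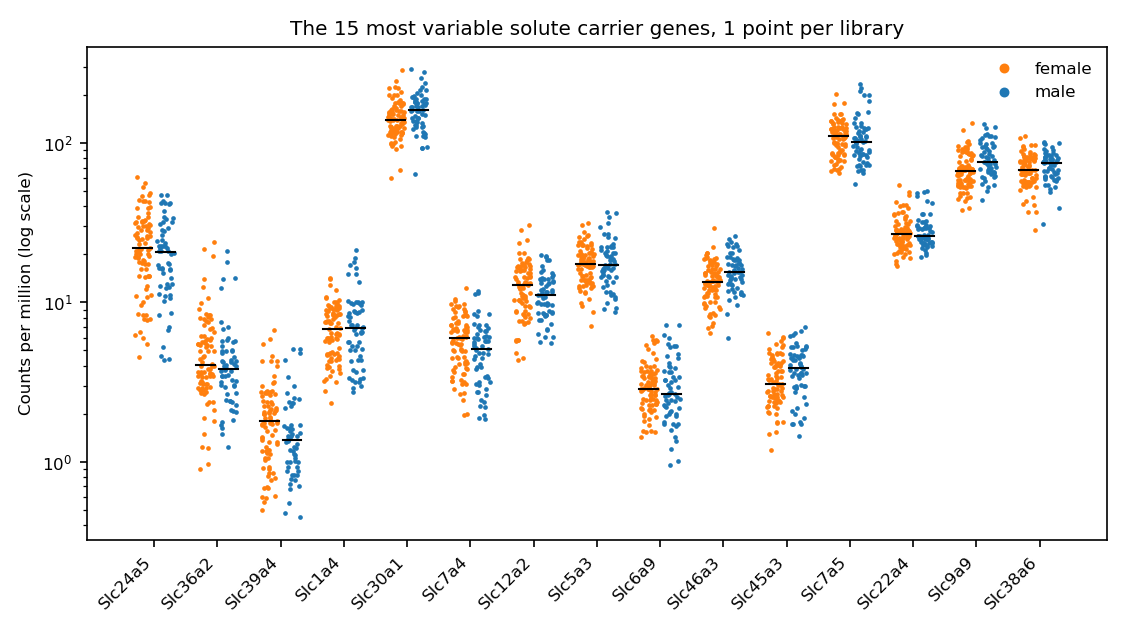
CPM on a log axis for the 15 members with the largest SD, 1 point per library, in order of the SD, with female libraries left, male libraries right and a line at each median. The sexes overlap in each of the 15 genes. Slc24a5 has the largest SD, while the highest library was 26.75 times the lowest for Slc36a2, 15.07 times for Slc39a4 and 13.98 times for Slc24a5.

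The most variable member was Slc24a5 (chr2:125068124-125088677), a potassium-dependent sodium-calcium exchanger known from pigment cells, with 4.35, 21.2 and 60.8 CPM as lowest, median and highest value and an SD of 0.677. It is uncertain, since 39.5% of its exon length overlaps Myef2, and its r with Myef2 was 0.373 (rho 0.378, 0.331 without the 2 libraries farthest from the median, a description). Slc36a2, a proton-coupled glycine and proline transporter, ran from 0.894 through 3.96 to 23.9 CPM, with an SD of 0.567. The second highest library had 21.7 CPM, so the top of its range did not rest on a single mouse. Slc39a4, the zinc importer ZIP4, ran from 0.447 through 1.55 to 6.74 CPM with an SD of 0.415.

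Slc1a4 (chr11:20302180-20332713, minus strand) ran from 2.32 through 6.89 to 21.4 CPM, with an SD of 0.410. Slc30a1 was both abundant and variable, at 59.8, 144 and 289 CPM with an SD of 0.378. Slc7a4, a member of the cationic amino acid transporter family, had 1.86, 5.57 and 12.4 CPM, and Slc12a2, the sodium-potassium-chloride cotransporter NKCC1, 4.31, 11.9 and 30.7 CPM. Slc5a3, the myo-inositol transporter, had 7.04, 17.3 and 36.95 CPM. In each of these genes the highest library was over 4 times the lowest.

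The remaining genes among the 15 were the uncertain glycine transporter Slc6a9, Slc46a3, Slc45a3, the large neutral amino acid transporter Slc7a5 with 55.5, 108 and 236 CPM, the ergothioneine transporter Slc22a4, the endosomal proton exchanger Slc9a9 and the uncertain Slc38a6. The SD was 0.309 for Slc38a6, the last gene counted, and 0.308 for Slc29a3, the next. The least variable member was the zinc carrier Slc39a9, at 85.95, 105 and 121 CPM with an SD of 0.0664.

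Summed markers of cell types moved with some of these genes, but the sums lean on single genes. Among dendritic cell markers Itgax averaged 28.7 CPM, Flt3 2.57, Zbtb46 0.850 and Xcr1 0.428. Of the 4 B cell markers, 3 averaged at or under 1 CPM and Cd79b 2.40. Megakaryocyte markers summed to 0.286 to 11.97 CPM, and among macrophage markers Lyz2 averaged 10000 CPM beside 1749 for Cd68. Over the 146 libraries, r with the summed dendritic cell markers was 0.717 for Slc22a4 (rho 0.618), -0.619 for Slc24a5 (rho -0.556) and -0.602 for Slc7a4 (rho -0.580). With the summed neutrophil and granulocyte precursor markers, r was -0.466 for Slc24a5 (rho -0.484), -0.520 for Slc7a4 (rho -0.539) and 0.446 for Slc6a9 (rho 0.401). With B cell markers r was -0.677 for Slc7a4 (rho -0.649), and with megakaryocyte markers -0.631 for Slc24a5 (rho -0.604). For Slc1a4, r was 0.0222 with dendritic cell, 0.0132 with granulocyte and -0.325 (rho -0.299) with macrophage markers. With the macrophage markers Slc7a5 had -0.400 (rho -0.358) and Slc36a2 0.528 (rho 0.479). In bulk RNA, fewer cells of a type and less RNA per cell cannot be told apart, and the part of other cells in these ranges was not tested.

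For the 8 most variable members, the 4 genes of the VST table with the largest absolute r were listed, as a description over 146 libraries that share plates and collection dates. Slc1a4 was nearest to Nars (r 0.829, rho 0.820), Cars (0.825, 0.813), Slc7a5 (0.818, 0.815) and Sars (0.813, 0.821), where Nars, Cars and Sars encode cytosolic aminoacyl-tRNA synthetases. Within the 6 larger plates, r with Nars ranged from 0.686 to 0.947. Slc36a2 was nearest to Scarb2 (r 0.762, rho 0.654), a lysosomal membrane protein, Ucp2 (0.752, 0.670), a mitochondrial carrier of the same structural family as SLC25, Itgb5 (0.745, 0.650) and, with opposite sign, Tmod1 (-0.736, -0.660). Among the genes listed for Slc7a4 were Srgn, serglycin (r -0.822, rho -0.809), and the sodium-calcium exchanger Slc8a1 (0.817, 0.801).

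Slc30a1 was nearest to Sertad1 (r 0.813, rho 0.765), Eme1 (-0.801, -0.773), Spty2d1 (0.8, 0.767) and Prune1 (0.790, 0.758). Slc24a5 was nearest to Inpp4b (r 0.812, rho 0.798), Nop53 (-0.799, -0.784), the fucosidase gene Fuca2 (0.792, 0.778) and Pigk (0.789, 0.775), and Slc12a2 to Pigk (0.749, 0.741), Prune1 (-0.742, -0.690), Zyx (-0.735, -0.719) and Golim4 (0.734, 0.695). Slc5a3 had Prkch (r -0.670, rho -0.614), Vps25 (-0.664, -0.661), Uhrf2 (0.656, 0.631) and Ipo7 (0.653, 0.644). Slc39a4 had no close partner, its nearest gene being Rin3 (r 0.523, rho 0.460), followed by Ckap5 (-0.518, -0.482), Bmf (0.510, 0.446) and Rassf4 (0.506, 0.452). None of these partners lies on the chromosome of its member.

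Members of a substrate class were not, as a rule, co-expressed over the mice. The median Spearman rho of VST values, after removal of plate and sex, was 0.0314 over 1739 pairs within classes, 0.0198 over 13832 pairs between classes and -0.0015 over all pairs of VST genes. A rho above 0.5 was found in 4.31% of pairs within classes, 3.74% between classes and 2.46% of all gene pairs. Class medians ran from -0.0479 for the 5 nucleoside carriers to 0.0932 for the 9 vitamin and cofactor carriers, with 0.0731 for sugars, 0.0680 for amino acids, 0.0182 for mitochondrial carriers and -0.0333 for zinc. These medians moved with the processing. The nucleoside median rests on 10 pairs, ran from -0.33 to 0.27 within plates, and was -0.00461 when date replaced plate and 0.00404 with the first principal component (the main axis of variation between libraries) removed. The zinc median ran from -0.0262 to 0.0439 within plates and was -0.000785 with that component removed.

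The first principal component of all genes outside the family held 21.5% of their variance, and 61 members (34.5%) had an absolute r above 0.5 with it, beside 35.2% of all genes. Removal of this component lowered the r of several high pairs. Slc35c2 and Slc35b1 of the SLC35 family had a rho of 0.814 and an r of 0.839, which became 0.313, and Slc25a12, the aspartate-glutamate carrier, and Slc25a20, the carnitine carrier, had 0.647 and 0.685, which became 0.214. Among the lowest pairs, Slc29a3 with Slc35b1 had a rho of -0.746 and an r of -0.755, which became -0.227. Slc35b4 with Slc25a28 had the same rho, with an r of -0.776, which became -0.545.

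Among other high pairs, Slc7a5 with Slc1a4 kept its r after the first principal component was removed. The r of Slc39a8 with Slc39a6 and of Slc12a7 with Slc8a1 was lower after removal. Slc7a5 and Slc1a4 had a rho of 0.815 and an r of 0.818, with 0.801 without the 2 libraries farthest from the median of Slc7a5, 0.334 to 0.904 within plates and 0.817 with the first principal component removed. The zinc importers Slc39a8 and Slc39a6 had the highest rho of all member pairs, 0.829, with an r of 0.829 and 0.562 after removal. Slc12a7, the potassium-chloride cotransporter KCC4, and Slc8a1 had a rho of 0.740 and an r of 0.737, which became 0.481.

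In the other classes the highest pair was Slc5a6 with Slc52a2, the multivitamin and riboflavin transporters (rho 0.634, r 0.629, 0.186 after removal), Slc2a8 with Slc37a4 among the sugar carriers (0.483, 0.486, 0.422), Slc43a3 with Slc29a2 among nucleoside carriers (0.449, 0.498, -0.0611), the uncertain Slc22a21 with Slc16a6 (0.384, 0.424, 0.312), Slc31a1 with Slc41a2 (0.287, 0.284, 0.261) and Slc27a4 with Slc27a1 (0.2, 0.253, 0.252).

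**Figure D3:**
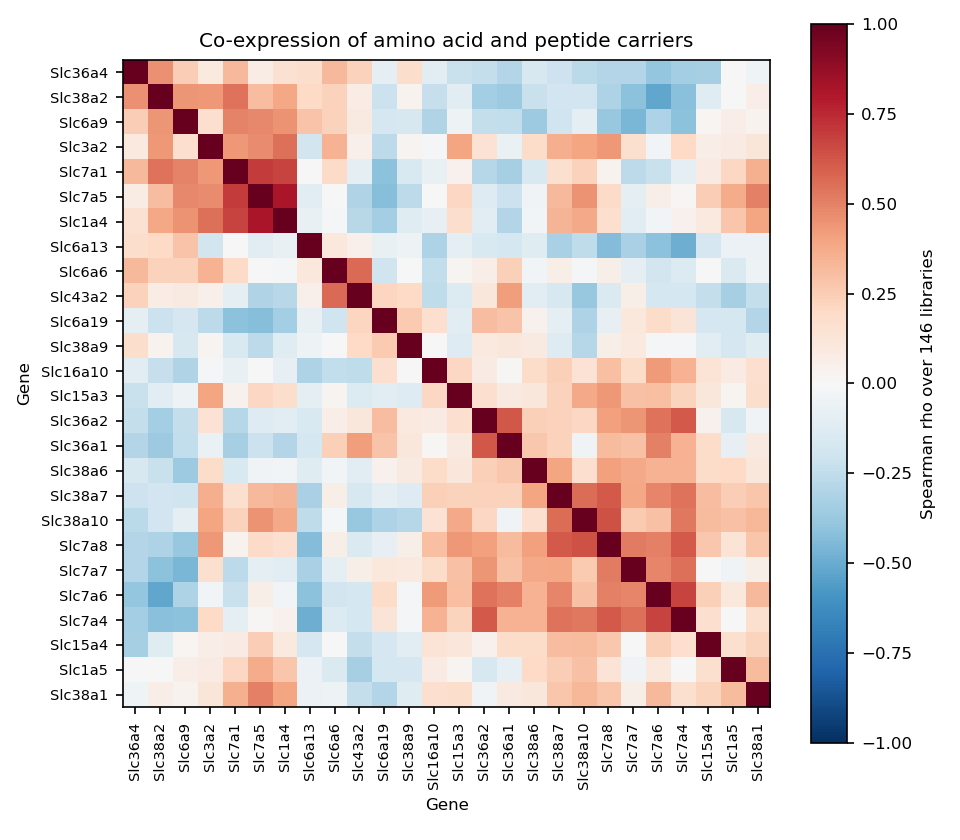
Spearman rho over 146 libraries, after removal of plate and sex, for each pair of the 26 amino acid and peptide carriers, ordered by average linkage. A block holds Slc1a4, Slc7a5, Slc7a1, Slc3a2, Slc6a9 and Slc38a2 among others, with 0.815 for Slc7a5 and Slc1a4. A second block holds Slc7a4, Slc7a6, Slc7a7, Slc7a8, Slc36a1 and Slc36a2, also among others. The blocks do not follow families, since Slc7a8 had 0.637 with Slc38a10 and 0.611 with Slc38a7, and Slc38a2 had 0.459 with Slc36a4.

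Within the amino acid class, Slc7a1, the cationic amino acid transporter CAT1, had a rho of 0.696 with Slc7a5, 0.676 with Slc1a4 and 0.545 with Slc38a2, the sodium-coupled transporter SNAT2. Slc6a9 had 0.493 with Slc7a1. The lowest pair of the class was Slc38a2 with Slc7a6, at -0.516, and Slc38a2 had -0.415 with Slc7a4 and -0.413 with Slc7a7. The plot of the class shows these carriers in separate blocks.

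There were 14 pairs of members whose genes lie within 200 kb of each other. Slc36a1 and Slc36a2, which lie 19.3 kb apart on chromosome 11, had the highest r, 0.73 (rho 0.619, 0.223 to 0.928 within plates). Slc35b2 and Slc29a1, 17.5 kb apart on chromosome 17, had an r of 0.52 (rho 0.469), and the uncertain Slc22a5 and Slc22a21, which share sequence, 0.324 (rho 0.297). The other 11 pairs had an r of at most 0.123, and Slc25a20 with Slc26a6 had the lowest, -0.363 (rho -0.356). Neighbouring copper transporters Slc31a1 and Slc31a2 had -0.212 (rho -0.177).

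Known partners were tested as 11 pairs by 100000 permutations of the libraries, two-sided, with Benjamini-Hochberg adjustment over the pairs. The permutations do not allow for mice that share a collection date. Of the 11 pairs, 8 passed the adjusted threshold of 0.05, with unadjusted p of 1e-05, the smallest these permutations can give, for each of the 8. The share of all gene pairs that would pass was not computed, so this count does not set known partners apart from other pairs.

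The heavy chain Slc3a2 correlated with the light chains Slc7a5 (r 0.438, rho 0.469, adjusted permutation p = 1.37e-05) and Slc7a8 (0.409, 0.434, 1.37e-05). With the light chains Slc7a7 (r 0.152, rho 0.162, adjusted permutation p = 0.0736) and Slc7a6 (-0.0937, -0.0240, 0.261) it did not pass. Without the 2 libraries farthest from the Slc3a2 median, r was 0.453 for Slc7a5 and 0.421 for Slc7a8. Within plates r ranged from -0.0642 to 0.661 for Slc7a5 and from 0.121 to 0.733 for Slc7a8. With collection date in place of plate, r for Slc7a5 was 0.185 (adjusted permutation p = 0.0306) and Slc7a7 passed, at 0.294 (0.000454). After removal of the first principal component Slc7a6 passed with a negative r of -0.261 (0.00183).

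Basigin (Bsg), the chaperone of monocarboxylate transporters, correlated with its clients in opposite directions. The r was 0.434 for the lactate exporter Slc16a3 (rho 0.375, adjusted permutation p = 1.37e-05) and -0.41 for Slc16a1 (rho -0.390, 1.37e-05). Without the 2 farthest libraries these were 0.379 and -0.404. Within plates r ranged from -0.0499 to 0.705 for Slc16a3 and from -0.851 to -0.0133 for Slc16a1, and with the first principal component removed it was 0.676 and -0.394.

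The zinc exporter Slc30a1 correlated with the metallothionein genes Mt1 (r 0.404, rho 0.391, adjusted permutation p = 1.37e-05) and Mt2 (0.444, 0.433, 1.37e-05). Mt1 and Mt2 are textbook targets of a metal-sensing factor, and shared regulation with Slc30a1 was not tested. Without the 2 farthest libraries r was 0.376 and 0.421, and within each of the 6 plates it was positive, at 0.201 or above. The zinc transporters Slc30a5 and Slc30a6, which form a heterodimer in the secretory pathway, had an r of 0.397 (rho 0.369, adjusted permutation p = 1.37e-05). Removal of the first principal component gave this pair 0.0230 (adjusted permutation p = 0.782).

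The mitochondrial citrate exporter Slc25a1 correlated with Acly, which cleaves citrate in the cytosol (r 0.457, rho 0.446, adjusted permutation p = 1.37e-05, -0.0481 to 0.630 within plates, 0.425 without the 2 farthest libraries). The glucose-6-phosphate translocase Slc37a4 and the phosphatase G6pc3, which act in series, did not pass (r 0.160, rho 0.134, adjusted permutation p = 0.0659).

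To ask which programmes of the macrophage the carriers follow, each VST gene was regressed with limma on 5 programme scores, with plate and sex as covariates and adjustment over all 10893 genes. A score is the mean z-scored residual of a gene list, scaled to an SD of 1, and no solute carrier gene enters it. A slope is therefore in log2 VST units per SD of the score. The 5 scores come from the same libraries, and with 4 of them between 25.9% and 34.7% of all genes passed in each direction, so counts of members are set beside the share of all genes.

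In 6 libraries, male replicates 7, 11, 12 and 37 and female replicates 24 and 83, the cholesterol score (-3.36 to -2.05) and the cell cycle score (-4.14 to -2.56) were both below -2. The other libraries reached down to -1.93 and -2.51. Over all libraries the r of these 2 scores was 0.629, and without the 6 it was 0.445. The 6 libraries had the lowest Slc43a3 levels, 18.5 to 24.1 CPM against 24.6 to 62.4 in the others, while their Slc22a4 levels of 41.8 to 54.1 CPM overlapped the 16.8 to 48.2 of the others. Results on these scores are given with and without the 6, which were chosen after the scores were seen.

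**Figure D4:**
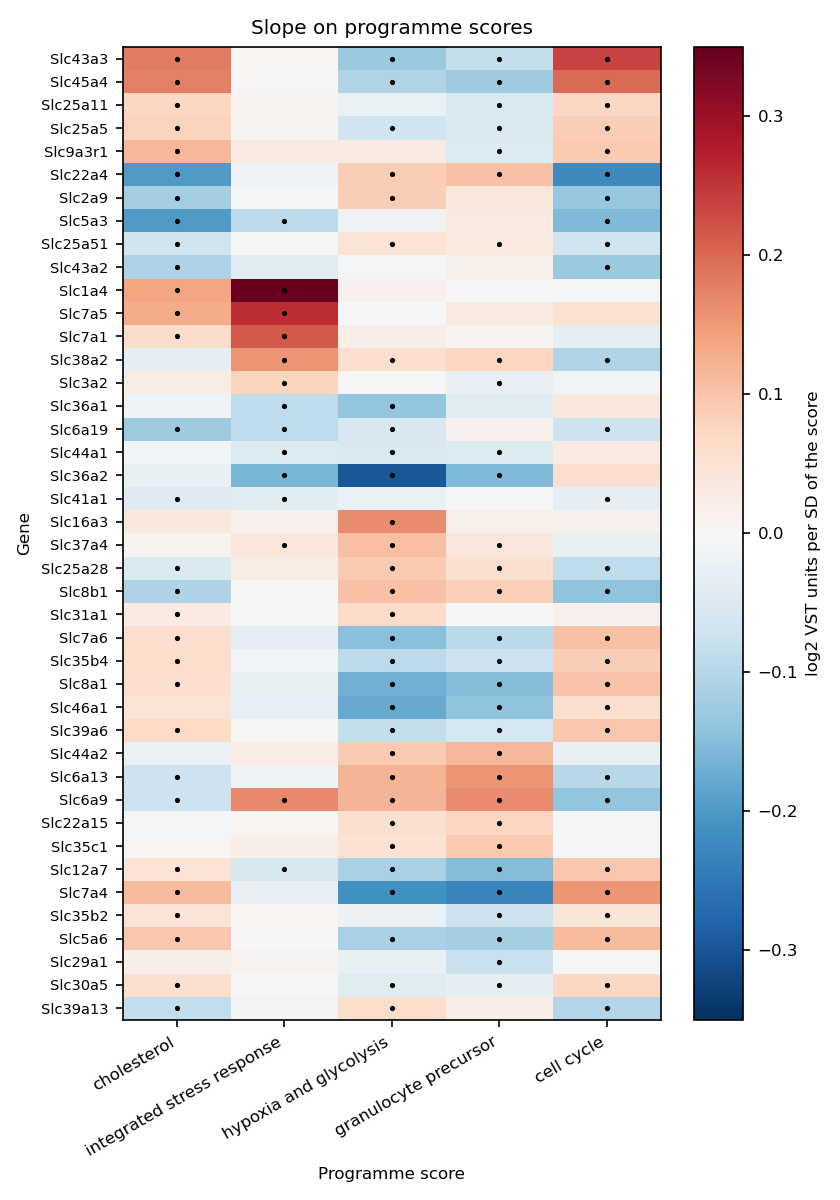
Slope of 42 members on the 5 programme scores, in log2 VST units per SD of the score, with a dot where the adjusted p was under 0.05 (limma, 146 libraries). The amino acid carriers Slc1a4, Slc7a5 and Slc7a1 have their steepest slopes on the integrated stress response score, at 0.347, 0.259 and 0.214.

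With the integrated stress response score, made of 20 genes such as Asns, Trib3 and the tRNA synthetases, 20 members rose (11.3%) and 9 fell (5.08%), beside 5.83% and 6.61% of all genes. The amino acid carriers made up 9 of the 20 that rose, 34.6% of the 26 in their class, and 3 of the 9 that fell. The median slope was 0.00339 for the members and -0.000287 for all genes.

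Slc1a4 had the steepest slope, 0.347 ± 0.0185 (SE, limma adjusted p = 1.29e-36), and its r with the score was 0.846 (rho 0.854, 0.833 without the 2 farthest libraries, 0.755 to 0.939 within plates). Slc7a5, with 0.259 ± 0.0156 (1.29e-31), had an r of 0.816 (rho 0.790, 0.792 without the 2 farthest, 0.471 to 0.911 within plates). Slc7a1 rose by 0.214 ± 0.0170 (6.02e-22), Slc38a2 by 0.154 ± 0.0185 (1.57e-11) and Slc3a2 by 0.0793 ± 0.0109 (4.13e-09). In CPM, Slc7a1 ran from 108.5 through 178 to 385 and Slc38a2 from 236 through 347 to 673 over the libraries. Slc1a4, Slc7a5 and Slc7a1 all had their highest value in male replicate 44. The lowest score, in male replicate 42, was -3.41.

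Other members that rose were the uncertain Slc6a9 at 0.169 ± 0.0253, the sodium-coupled transporter Slc38a1 at 0.0503, the glutamine transporter Slc1a5 at 0.102 and the folate carrier Slc19a1 at 0.0582. Slc36a1, the lysosomal proton-coupled amino acid transporter PAT1, fell by 0.0886 ± 0.0200 (limma adjusted p = 0.000905). Slc6a19 fell by 0.0883, Slc36a2, a relative of Slc36a1, by 0.159, the choline transporter Slc44a1 by 0.0484 and the magnesium transporter Slc41a1 by 0.0398. Of 21 genes on a list of transport partners and regulators, Atf4 alone passed, with a slope of 0.214 ± 0.0214 (1.53e-15). Among the 16 rising members with a promoter entry, TGATGNAA was found in 1, Slc1a4.

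The batch term mattered for this score. Slc1a4 averaged 11.1 CPM on plate 7 and 4.95 to 7.88 on the other plates, and Slc7a5 153 CPM against 90.4 to 116. With collection date in place of plate, 7 members passed, all rising, namely Slc1a4 (slope 0.201), Slc7a5 (0.173), Slc7a1 (0.122), Slc38a2 (0.0663), Slc3a2 (0.0467), Slc6a9 (0.0980) and the sugar transporter Slc2a8 (0.0556). These were 3.955% of the members, beside 1.809% of all genes called with date in the model (12.44% with plate). Once the first principal component was a further covariate, 41 members passed, beside 20.5% of all genes, and 29 calls kept their sign.

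**Figure D5:**
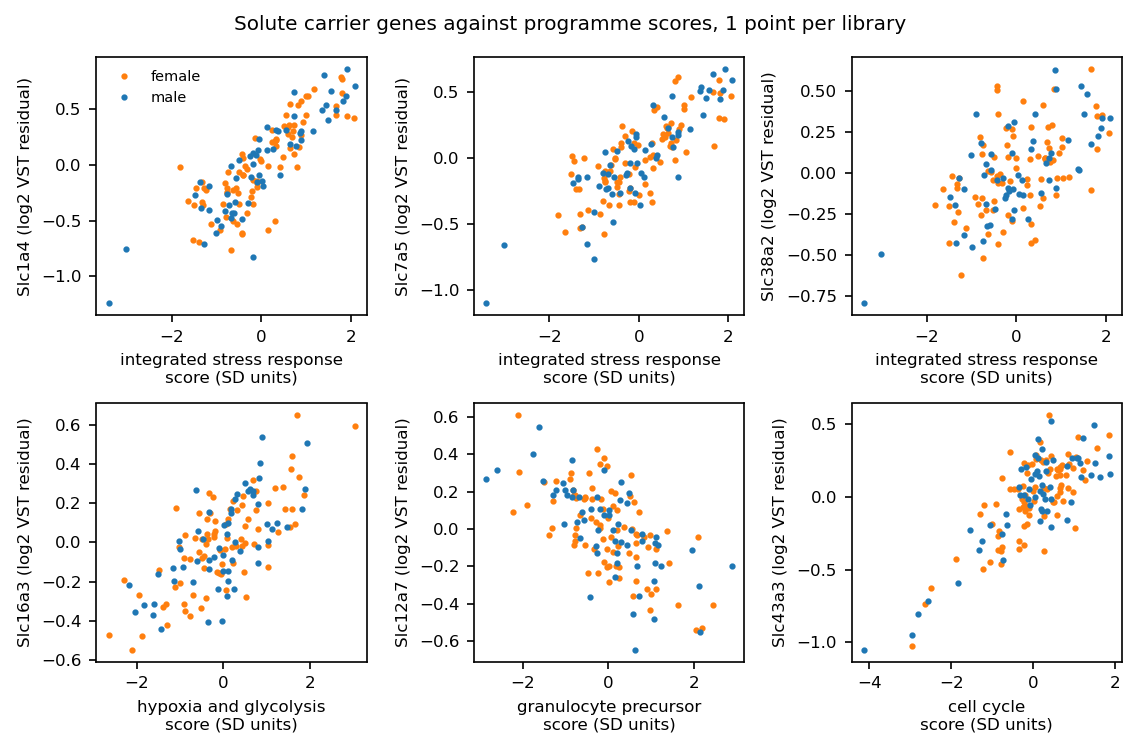
VST residual of 6 members (log2, plate and sex removed) against the programme score of the library in SD units, 1 point per library, orange for female and blue for male. Slc1a4 and Slc7a5 rise with the integrated stress response score (r 0.846 and 0.816), Slc16a3 with hypoxia and glycolysis (0.715) and Slc43a3 with the cell cycle (0.8), while Slc12a7 falls with the granulocyte precursor score (-0.653).

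With the hypoxia and glycolysis score, made of 21 genes such as Pgk1, Ldha and Vegfa, 39 members rose (22.0%) and 61 fell (34.5%), beside 27.7% and 30.3% of all genes. Slc16a3, whose product exports the lactate made by glycolysis, had the smallest p of the members, with a slope of 0.164 ± 0.0137 (limma adjusted p = 1.26e-20) and 156 through 229 to 372 CPM over the libraries. Its r was 0.715 (rho 0.676, 0.688 without the 2 farthest libraries, 0.148 to 0.881 within plates). Slc37a4 rose by 0.105 ± 0.00934, with an r of 0.697 (rho 0.661, 0.592 to 0.904 within plates). Slc25a28, mitoferrin-2, rose by 0.0920, Slc8b1 by 0.102 and the copper importer Slc31a1 by 0.0680. The chaperone Bsg rose by 0.138 ± 0.00939 (4.61e-27).

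Of the 12 sugar carriers, 8 rose and 2 fell. The 8 were Slc37a4, the sugar transporters Slc2a8 (0.0881) and Slc2a3 (0.0494), Slc2a9 (0.0863), Slc45a3, Slc37a2, Slc37a3 and Slc17a5, and Slc45a4 and Slc50a1 fell. Slc2a9, a urate transporter, is in this class by its family. With the first principal component as a covariate 3 of these 10 calls remained with the same sign, those of Slc37a4 (0.105), Slc2a8 (0.0771) and Slc45a3 (0.105), and 4 of the 12 slopes changed sign. Among 17 zinc carriers 4 rose and 9 fell, with Slc30a1 at 0.117 and Slc39a8 at -0.164. Of the 9 vitamin and cofactor carriers 5 fell, led by the proton-coupled folate transporter Slc46a1, which fell by 0.177 ± 0.0206.

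Slc7a6, the light chain y+LAT2, fell by 0.145 ± 0.0134 (limma adjusted p = 6.60e-18), with an r of -0.679 (rho -0.658, -0.638 without the 2 farthest, -0.856 to -0.508 within plates). Slc35b4 fell by 0.0912, Slc8a1 by 0.168 and Slc39a6 by 0.0834. The monocarboxylate transporters again moved apart, since Slc16a1 fell by 0.0512 on the same score. With the first principal component as a covariate 71 members passed, beside 35.4% of all genes, 56 of the 177 slopes changed sign, and Slc16a3 had a slope of 0.235. Of the 100 members called without this covariate, 41 were called with the same sign.

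The granulocyte precursor score was made of 11 genes with VST values, such as Mpo, Elane and Prtn3. With it, 22 members rose (12.4%) and 73 fell (41.2%), beside 25.9% and 29.1% of all genes, and the median slope was -0.0159 for the members and -0.00188 for all genes. Slc12a7 fell by 0.151 ± 0.0149 (limma adjusted p = 1.93e-16), with an r of -0.653 (rho -0.646, -0.817 to -0.478 within plates). Slc7a4 fell by 0.229 ± 0.0252, the sulphate donor transporter Slc35b2 by 0.0726, the multivitamin transporter Slc5a6 by 0.119 and Slc29a1 by 0.0780.

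Slc44a2 rose with the granulocyte score by 0.116 ± 0.0139 (limma adjusted p = 3.37e-12) and the GABA and taurine transporter Slc6a13 by 0.155 ± 0.0189. The uncertain Slc6a9 rose by 0.165, the fucose donor transporter Slc35c1 by 0.0919 and Slc22a15 by 0.0754. Since the score is built from granulocyte genes, more such cells and more RNA per cell cannot be told apart here. Adding the first principal component as a covariate, 61 members passed, 14 rising and 47 falling, beside 25.8% of all genes, and 60 of the 177 slopes changed sign. Of the 95 members called without this covariate, 31 were called with the same sign.

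The series title names a cholesterol network. With the score of 20 cholesterol synthesis genes, 67 members rose (37.9%) and 43 fell (24.3%), beside 31.1% and 30.2% of all genes. Slc43a3 rose by 0.182 ± 0.0198 (limma adjusted p = 3.34e-14), Slc45a4 by 0.176, the mitochondrial carriers Slc25a11 by 0.0730 and Slc25a5 by 0.0778, and the scaffold Slc9a3r1 by 0.117. Slc22a4 fell by 0.199 ± 0.0208 (4.90e-15), the urate transporter Slc2a9 by 0.118, Slc5a3 by 0.197, the mitochondrial NAD carrier Slc25a51 by 0.0692 and Slc43a2 by 0.107. Of the 26 amino acid carriers 13 rose and 6 fell.

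These relations varied between plates. For Slc43a3 r with the cholesterol score was 0.615 (rho 0.411, 0.549 without the 2 farthest libraries) over all libraries and -0.224 to 0.912 within plates, and for Slc22a4 -0.630 (rho -0.492, -0.594) and -0.859 to 0.0643. With the first principal component as a covariate 51 members passed, beside 24.9% of all genes, and 70 of the 177 slopes changed sign. Of the 110 members called without this covariate, 31 were called with the same sign. Of the 10 genes named, 9 kept their call, with a slope of 0.108 for Slc9a3r1 and -0.0938 for Slc22a4 but 0.0492 for Slc43a3, and Slc25a51 lost it. Without the 6 libraries low on both scores, 76 members passed (42.94%), beside 41.45% of all genes, and r was 0.417 for Slc43a3 and -0.498 for Slc22a4. The slope of Slc43a3 was then 0.0917 (limma adjusted p = 2.77e-05), and each of the 10 named genes still passed.

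With the cell cycle score, made of 22 genes of replication and mitosis, 69 members rose (39%) and 55 fell (31.1%), beside 34.7% and 34.1% of all genes. Slc43a3, which imports purine nucleobases, rose by 0.237 ± 0.0151 (limma adjusted p = 1.57e-30), from a lowest level of 18.5 through 46.5 to 62.4 CPM, with an r of 0.8 (rho 0.651, 0.760 without the 2 farthest libraries, 0.397 to 0.904 within plates). Slc45a4 rose by 0.199, Slc30a5 by 0.0726, Slc39a6 by 0.0950 and Slc25a5 by 0.0870. Slc22a4 fell by 0.223 ± 0.0189, Slc8b1 by 0.141, Slc43a2 by 0.130, Slc2a9 by 0.131 and Slc39a13 by 0.102. With the first principal component as a covariate 54 members passed, beside 33% of all genes, and 81 of the 177 slopes changed sign. Of the 124 members called without this covariate, 27 were called with the same sign. Of the 10 genes named, 5 then lost their call, namely Slc45a4 (0.0434, limma adjusted p = 0.0766), Slc39a6 (0.0222, 0.106), Slc25a5 (0.0167, 0.191), Slc8b1 (-0.0226, 0.293) and Slc2a9 (-0.0366, 0.104). The slope was 0.107 for Slc43a3, -0.111 for Slc22a4 and -0.120 for Slc43a2.

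Within plates r with the cell cycle score ranged from -0.0660 to 0.880 for Slc45a4, 0.00758 to 0.885 for Slc25a5 and -0.940 to -0.0358 for Slc22a4. Without the 6 libraries low on both scores, 101 members passed (57.06%), beside 57.91% of all genes, and each of the 10 named genes was still called. The slope of Slc43a3 was then 0.156 (limma adjusted p = 1.23e-17) with an r of 0.673, and that of Slc22a4 -0.160 with an r of -0.589.

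For the 30 member and score pairs of smallest p, 6 per score, the unadjusted permutation p was 1e-05 for r and for rho, the smallest possible with 100000 permutations, and the value adjusted over the 30 was the same. These pairs were picked by the limma p from the same libraries, so the permutation p adds no independent evidence. Without the 6 libraries that went against their labelled sex, the limma counts of members called were 103 for cholesterol, 29 for the integrated stress response, 102 for hypoxia and glycolysis, 94 for granulocyte precursors and 122 for the cell cycle, beside 110, 29, 100, 95 and 124 with them. In the same order, the shares of all genes called without these libraries were 59.18%, 14.27%, 56.73%, 53.45% and 67.74%.

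Between the sexes, differences were small. Tested with edgeR over 12060 genes with plate as covariate, 12 members (6.78%) were higher in males and 2 (1.13%) lower, beside 2.17% and 2.84% of all genes, and 49 members had an unadjusted p under 0.05. The absolute log2 fold changes of the 14 ran from 0.0614 to 0.254 with a median of 0.113, and the CPM ranges of the sexes overlapped in each. The direction held in all 7 plates for 8 of the 14 and in 6 plates for the others. The 14 were chosen by a fit over these same plates, so this adds no independent evidence. Neither edgeR nor DESeq2 called any of the 9 members on the X chromosome, 3 of which had an unadjusted p under 0.05 in edgeR, or any of the 22 transport partners, of which 4 had one.

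Slc9a9 was higher in males at 81.2 ± 20.03 CPM (SD, n = 60) against 68.8 ± 17.8 in females (n = 86), a log2 fold change of 0.23 ± 0.057 (SE, edgeR adjusted p = 0.00737). Slc35f6 had 262 ± 31.1 CPM in males and 244 ± 35.1 in females (log2 0.11, edgeR adjusted p = 0.0205). Slc38a9, a lysosomal arginine sensor, the fatty acid transporter Slc27a1 and Slc41a2 were higher by log2 0.066, 0.11 and 0.093. With collection date in place of plate, Slc38a9 kept its call (edgeR adjusted p = 0.016), while Slc27a1 (0.114) and Slc41a2 (0.0924) lost it. Slc18b1, a vesicular polyamine transporter, was lower in males, at 5.48 ± 1.41 against 6.59 ± 1.73 CPM (log2 -0.25 ± 0.065, edgeR adjusted p = 0.00908). The folate carrier Slc19a1 was lower as well, at 19.2 ± 2.90 against 21.2 ± 2.90 CPM (log2 -0.13, 0.00737).

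Without plate 4 no member passed in edgeR, with 31 at an unadjusted p under 0.05 and a smallest adjusted p of 0.0545, and the share of all genes called fell from 5.02% to 1.91%. The log2 fold change without plate 4 was -0.12 for Slc19a1, 0.20 for Slc9a9 and 0.24 for Slc46a3, against -0.13, 0.23 and 0.22 with it, and 0.063 against 0.11 for Slc35f6. The member count was 7 without plate 1, 8 without plate 3 and 4 without plate 7, beside 3.46%, 2.96% and 2.47% of all genes. DESeq2 called 18 members and 5.85% of all genes. Without the 6 libraries that went against their label edgeR called 20 members, 15 higher and 5 lower, and 7.69% of all genes. For the interaction of sex and plate no member passed in edgeR, beside 0.0415% of all genes, with 8 members at an unadjusted p under 0.05 and a smallest adjusted p of 0.996.

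Most members differed between plates, in a model without collection date, so plate and date cannot be told apart here. By the edgeR test over plates, 139 of 177 members (78.5%) differed, beside 74.8% of all genes, and plate accounted for a median of 15.5% of the variance of the members and 15.2% of all genes. Slc35a3, the UDP-N-acetylglucosamine transporter, had the smallest p, with plate accounting for 50.6% of its variance and means from 75.95 CPM on plate 10 to 109 on plate 1. Plate means lay further apart as a ratio for Slc36a2, at 3.19 to 8.08 CPM, and for Slc1a4, at 4.95 to 11.1.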

How the data were processed

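Members and lists were chosen with earlier results of these data known. Per the submitters' processing notes, FastQC was used on the reads, TopHat2 2.0.11 aligned them to GRCm38 (mm10), HTSeq 0.6.1 made the counts and DESeq2 the normalised values. The strand setting and the annotation release are not given in the sources used here, so reads of overlapping genes on opposite strands cannot be told apart. The deposited raw counts are whole numbers for 22721 genes, and the deposited VST values are on a log2 scale for 10893 genes, each with at least 5 counts in every library. GENCODE M21 named 21899 of the identifiers, and 822 were not matched. Library totals ranged from 14.5 M to 120.9 M counts.

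From the counts, CPM and TPM were computed. Sex and plate were tested with edgeR 4.0.16 in R 4.3.3 (quasi-likelihood, TMM, filterByExpr by sex, model of plate and sex), and scores with limma 3.58.1 on VST values. The threshold was a Benjamini-Hochberg adjusted p of 0.05 over all genes tested. Co-expression used VST residuals after linear removal of plate and sex. The scripts were tested on simulated data. Alternatives were DESeq2 1.42.0, its size factors, no filter, date for plate, log2 CPM with a prior count of 1, the first principal component removed, and plates, mislabelled libraries or, chosen after seeing the data, 6 libraries low on 2 scores left out. The groups were the 86 mice labelled female and the 60 labelled male. A replicate number only names a mouse.

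The text names, by rule, the 15 members highest in TPM and in SD, up to 5 per direction and test by p, the 3 highest and the closest pair of each class, and the partner pairs. Some items this rule selects are not reported here. Other members named for a class or a pair were chosen after their values were seen. Slc4a1ap and Slc7a6os were moved to the class of genes that are no carriers after the data were seen.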

Additional observations from a re-analysis of the deposited data

How the results depend on the processing

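Of the summary results, 42 values under alternatives stayed within 1.5 times or on the same side of the threshold, and 10 did not. Between the sexes, 14 members were called in the main fit, and the count was 7 without plate 1, 8 without plate 3, 0 without plate 4 and 4 without plate 7, while the share of all genes called went from 5.02% to 3.46%, 2.96%, 1.91% and 2.47%. For the scores, the first principal component as a covariate lowered the members called to 51 for cholesterol, 61 for granulocyte precursors and 54 for the cell cycle. Of the 110, 95 and 124 members called without it, 31, 31 and 27 were called with the same sign. In the same order, the shares of all genes called went from 61.28%, 55.04% and 68.81% to 24.9%, 25.78% and 33.03%. Collection date in place of plate lowered the members called to 7 for the integrated stress response. The share of all genes called with that score went from 12.44% to 1.809%. Of the 15 members of highest TPM, 9 were also among the 15 of highest CPM, which does not divide by length, and of the 15 most variable by VST, 9 were among the 15 by log2 CPM. The cause was not tested. For the 14 members between sexes, 110 values kept direction and call and 58 lost the call. For the 11 partner pairs, 30 values kept both, 1 lost and 2 gained the call, though sizes could change, as for Slc3a2 with Slc7a5 (r 0.438, and 0.185 with date). None of these changed sign. Class medians have no test, and 43 of 44 moved by less than their SD over plates, which is larger than the median itself in several classes. With the first principal component removed, 2 changed sign, nucleosides (-0.0479 to 0.00404) and SLC25 carriers (0.0182 to -0.00327), and zinc moved to -0.000785. The set without the 6 libraries low on both scores was chosen after seeing the data. The call of each of the 14 members between sexes was lost in at least 1 alternative. No paired analysis was possible because the replicate numbers only follow the order of the samples and link no mice across sexes. With 1 library per mouse, p-values measure the spread between libraries, in which mouse, culture and library preparation cannot be told apart. Collection date was not in the main models. The shallowest library, at 14.5 M counts, limits members under 1 CPM most.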
